A study of Mus musculus with 76 samples.

Results

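Among the neurons sampled in this study, 5 were recorded as interneurons of the medial ganglionic eminence (MGE) but held almost no RNA of Lhx6, the gene most used to recognise such cells. They were chosen by that reading alone: of the cells that the authors kept and did not mark as contaminated, they are the ones with Lhx6 below 10 CPM (a gene's estimated count divided by the cell's total count and scaled to 1000000). The rule took 5 of 62 such cells, out of 76 cells in the series, and left 57 cells with Lhx6 at 10 CPM or more, called Lhx6-positive here. A gene is called found in a cell at 10 CPM or more.

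The contents of single cells were drawn into a patch pipette in acute slices of dorsal CA1 hippocampus, copied into Nextera XT libraries and sequenced, so that each sample is 1 cell. All pups were 4 days old and untreated, and all carried an Nkx2.1 Cre driver with the Ai14 reporter, which turns on tdTomato for good in the descendants of cells that once expressed the driver. The 4 groups are WT female with 9 kept and unmarked cells, WT male with 19 cells, Mut female with 19 and Mut male with 15, where Mut is the S268/270A form of GPHN, the gene of the inhibitory synapse scaffold gephyrin. RNA of tdTomato was not analysed here. The labels name no animal, litter, slice or batch. Cells that share an animal cannot stand as replicates, so each set of cells counts as 1 sample, and every difference below describes these cells with no test.

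Lhx6 encodes a LIM-homeodomain transcription factor that acts after Nkx2-1 in the MGE and directs its neurons toward the somatostatin and parvalbumin interneuron classes. Interneurons from the MGE move tangentially into the hippocampus, make GABA with the glutamate decarboxylases Gad1 and Gad2 and load it into vesicles with Slc32a1. Dlx genes are shared by forebrain interneurons of several origins. The pyramidal neurons around them in CA1 come from the dorsal telencephalon, use glutamate and carry Neurod-family and Emx factors.

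Lhx6 (ENSMUSG00000026890, chromosome 2, 36081953 to 36105408, minus strand, GRCm38) measured 2.55 CPM in WT male cell 12, 2.57 in Mut female cell 2, 2.67 in WT female cell 7, 3.08 in Mut male cell 3 and 4.74 in Mut female cell 18. These levels correspond to estimated counts of 11.8, 14, 20, 14.4 and 14.7, so no cell was without Lhx6 reads, and "Lhx6-low" describes them better than "lacking Lhx6". The 57 Lhx6-positive cells ranged from 12.4 to 1628 CPM with a median of 447. Just above the limit lay Mut male cell 12 at 12.4 CPM and WT male cell 9 at 16.1, and the next were WT male cell 6 at 24.995 and Mut male cell 5 at 25.8. All of these values follow from the rule or stand beside it and are no finding.

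**Figure D1:**
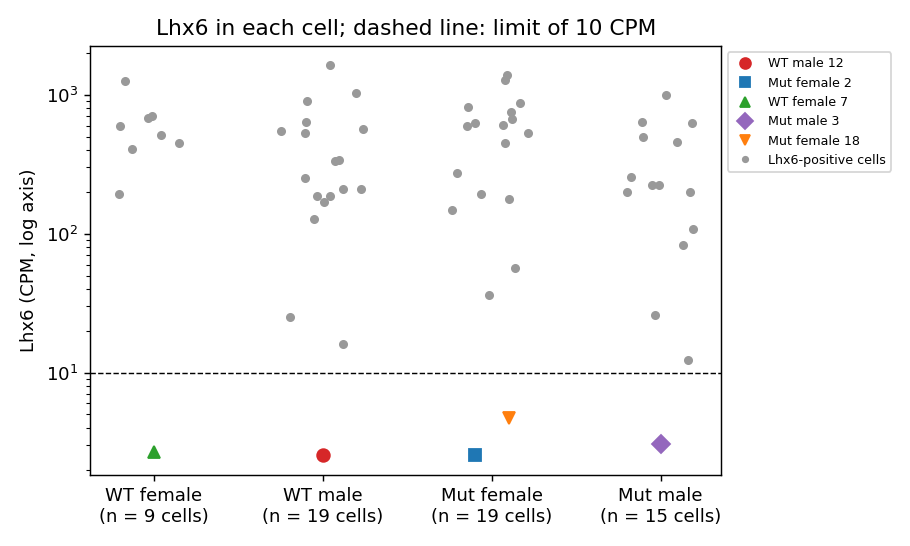
Lhx6 in CPM on a log axis for each of the 62 kept and unmarked cells, by group, with the limit of 10 CPM as a dashed line. The 5 Lhx6-low cells (coloured) lie between 2.55 and 4.74 CPM and come from all 4 groups, while the 57 Lhx6-positive cells (grey) reach up to 1628 CPM.

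Reads at such a low level were common across genes. Over the 134 genes whose mean lay within 1.25 times that of Lhx6 (431 CPM over the 62 cells) and that were under 10 CPM in at least 5 cells, the cells under 10 CPM held a median of 4.84 CPM, with a 5th to 95th percentile of 3.36 to 6.70. The corresponding median for Lhx6 was 2.67 CPM, below that range. Genes of higher mean read higher in the cells that fell under the limit: the median was 0.303 CPM for genes with a mean of 10 to 50 CPM, 1.15 for 50 to 200 and 3.46 for 200 to 1000. What these few reads come from was not tested. All 5 cells together held 0.0400% of the Lhx6 count of the 62 cells.

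Lhx6-low cells appeared in every group. There was 1 among 9 WT female cells (11.1%, exact 95% interval 0.281 to 48.2%), 1 among 19 WT male cells (5.26%, 0.133 to 26.0%), 2 among 19 Mut female cells (10.5%, 1.30 to 33.1%) and 1 among 15 Mut male cells (6.67%, 0.169 to 31.9%). By genotype the counts were 2 of 28 WT cells and 3 of 34 Mut cells, and by sex 3 of 28 female and 2 of 34 male cells. These intervals take each cell as independent, which cannot be known because the animals are not named. They cover the counting error of cells only and do not compare the groups. A difference between groups was not tested.

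The libraries of the Lhx6-low cells were not the shallowest but held fewer genes at 10 CPM or more. Totals were 4611919 counts in WT male cell 12, 5454080 in Mut female cell 2, 7482579 in WT female cell 7, 4673226 in Mut male cell 3 and 3105003 in Mut female cell 18, against 2946456 to 12070780 (median 6353179) over all 62 cells. Genes at 10 CPM or more numbered 3887, 3228, 1499, 3253 and 1993 in the same order. The Lhx6-positive cells had 1769 to 7795 such genes with a median of 4139, so all 5 cells were below that median and WT female cell 7 was the poorest of the 62. Genes with at least 1 count, after thinning each cell to 2900000 counts, numbered 11230, 9129, 7909, 10008 and 10406, against 7867 to 12831 (median 9916) in the positive cells. By that count 3 of the 5 cells were above the positive median, so the lower numbers were seen at the limit of 10 CPM and not over all detected genes.

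Common genes were set for each cell as those found in at least 90% of the other kept and unmarked cells. They were recovered at 92.2% in WT male cell 12, 94.1% in Mut female cell 2, 73.7% in WT female cell 7, 94.2% in Mut male cell 3 and 88.4% in Mut female cell 18. The positive cells ran from 77.2 to 100% with a median of 97.8%. Against the 21 positive cells with no more genes found than the richest Lhx6-low cell (1769 to 3771 genes), the median recovery of the Lhx6-low cells was 0.591 percentage points higher rather than lower. For that value the common genes were set anew within the Lhx6-low cells and these 21 cells. These 21 cells, chosen after the data were seen and called the matched cells below, are therefore given beside the main counts. Mitochondrial genes took 2.83, 2.96, 1.16, 2.20 and 3.80% of the counts of the 5 cells, against a median of 1.19% (0.0660 to 5.55%) in the positive cells. The part of library richness in the differences below was not tested beyond these matched counts.

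**Figure D2:**
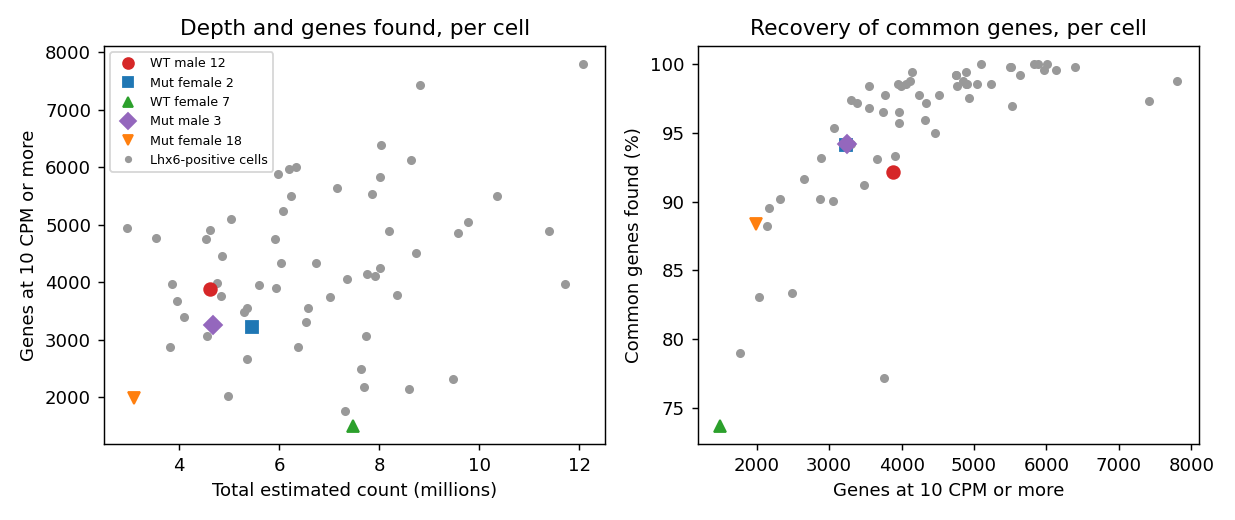
Left, genes at 10 CPM or more against total estimated count in units of 1000000, and right, the share of common genes found against genes at 10 CPM or more, 1 point per cell. WT female cell 7 (1499 genes, 73.7% of common genes) and Mut female cell 18 (1993 genes, 88.4%) lie among the poorest cells, and the other Lhx6-low cells lie in the lower part of the grey cloud.

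GABA genes were thin in 3 of the 5 cells, and the other two each held 1 of the decarboxylases at a usual level. No Lhx6-low cell had both decarboxylases: Gad1 and Gad2 were found together in 0 of 5, which allows a share of up to 60.0% at 3 counts, and in 47 of 57 positive cells (82.5%, exact 95% interval 70.1 to 91.3%). Among the 21 matched cells 16 had both. Either of the decarboxylases was found in 4 of the 5 cells and in 55 of 57.

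Gad1 (chromosome 2, 70553072 to 70602014, plus strand), the decarboxylase that supplies most of the GABA in neurons, measured 739 CPM in WT female cell 7. The other readings were 8.24 CPM in WT male cell 12, 27.7 in Mut female cell 2, 2.78 in Mut male cell 3 and 14.8 in Mut female cell 18. The positive cells held 7.10 to 1705 CPM with a median of 524, and 51 of 57 reached 100 CPM against 1 of 5. Gad1 was thus within the usual range in WT female cell 7 and near the bottom of it or under it in the other 4.

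Gad2 (chromosome 2, 22622205 to 22693874, plus strand), the synaptic form, was at 369 CPM in Mut male cell 3 and between 1.10 and 4.19 CPM in the other 4. The positive cells ranged from 0.612 to 1129 CPM with a median of 183, and 47 of 57 held it at 10 CPM or more. The cell with Gad2 was not the cell with Gad1. In Mut male cell 3 the vesicular GABA transporter Slc32a1 was also found, at 44.7 CPM, and it lay between 0.267 and 1.83 CPM in the others; 22 of 57 positive cells held it.

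Abat, the GABA-degrading transaminase, stayed at 0.438 to 4.41 CPM in the 5 cells and was found in 31 of 57; of the genes found in 31 to 40 positive cells, 14.6% were found in no Lhx6-low cell.

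Summed over the 4 genes of the GABA list, the level was 12.8 CPM in WT male cell 12, 20.6 in Mut female cell 18, 31.7 in Mut female cell 2, 417 in Mut male cell 3 and 746 in WT female cell 7. The positive cells ran from 12.2 to 2050 CPM with a median of 931. All 5 cells were below that median, and 1 positive cell was below WT male cell 12. Of the 4 GABA genes, 2 (Gad2 and Abat) were found less often in the Lhx6-low cells by 50 percentage points or more and 0 more often. With TPM the difference for Gad2 was -35.3 points, under that margin. Over all 12207 genes found in at least 3 cells, Lhx6 left out, 3.92% were less often found by that margin and 0.0983% more often. The median difference in share was -45.4 points over the list and -10.5 points over all genes.

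Transcription factors of forebrain interneurons were present, in a different selection in each cell. Any of Dlx1, Dlx2, Dlx5 or Dlx6, homeobox genes of ventral forebrain progenitors and their neurons, was found in 5 of 5 cells and in 48 of 57. Dlx2 measured 795 CPM in WT female cell 7 and 636 in Mut female cell 18, both above the positive maximum of 312, and 76.3 in WT male cell 12, with 0.917 in Mut female cell 2 and 1.71 in Mut male cell 3. Dlx1 was at 454 CPM in WT female cell 7 and 169 in Mut female cell 2 and between 1.07 and 4.19 in the rest, where the positive median was 124. Dlx5 and Dlx6 were found in Mut male cell 3 alone among the 5 cells, at 36.2 and 23.4 CPM, and in 23 and 7 positive cells.

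Sp9, a zinc-finger factor of ventral forebrain neurons, lay between 1.07 and 5.14 CPM in all 5 cells and was found in 41 of 57. Only 2.58% of the genes found in 41 to 50 positive cells were found in no Lhx6-low cell, and Sp9 was among them, although it was found in 10 of the 21 matched cells. The Dlx genes and Sp9 summed to 67.5 to 1251 CPM in the 5 cells and to a median of 329 in the positive ones, so this group overlapped.

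The other MGE genes were sparse. Of the 7 genes of the MGE list that entered the comparison besides Lhx6, 1 (Maf) was less often found by 50 points or more, 0 more often, and 4 were found in no Lhx6-low cell. Over all 12207 genes, 3.92% were less often found by that margin and 0.0983% more often, and 5194 were found in no Lhx6-low cell. The count of 4 is therefore not particular to this list. Nkx2-1, the MGE selector gene that drives the Cre line, was at 0 CPM in all 5 cells and was found in 11 of 57 positive cells; 48.1% of the genes found in 11 to 20 positive cells were in no Lhx6-low cell. Sox6, a downstream factor needed for the position and maturation of MGE neurons, lay between 0.367 and 2.58 CPM and was found in 0 of 5 and 25 of 57. Satb1, a chromatin organiser that acts in somatostatin cells, lay between 0.644 and 1.203 CPM and was found in 0 of 5 and 23 of 57. For genes found in 21 to 30 positive cells, 27.5% were likewise in no Lhx6-low cell, so Sox6 and Satb1 are not unusual in this.

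Maf, the c-Maf factor of MGE interneurons, reached 10.3 CPM in Mut female cell 2 and 1.204 to 7.16 elsewhere, against 47 of 57 positive cells and 16 of 21 matched ones. Zeb2, a zinc-finger factor that MGE neurons need to reach the cortex, measured 323 CPM in WT male cell 12 and 136 in Mut male cell 3, both above the positive median of 78.6, and 0.802 to 7.71 in the rest. Cux2 was found in 5 of 5 cells at 13.7 to 58.9 CPM and in 50 of 57. Without Lhx6, 1 or 2 MGE genes were found per Lhx6-low cell and a median of 4 per positive cell, or 3 per matched cell.

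Genes of interneuron migration and maturation were mixed. Erbb4, the neuregulin receptor that guides and wires MGE interneurons, lay between 0.856 and 2.25 CPM in the 5 cells and was found in 37 of 57 positive cells. In the matched cells it was found in 8 of 21, so the difference in share narrowed from -64.9 to -38.1 points, and with TPM it was -25.7 points. The chemokine receptors Cxcr4 and Ackr3 were found in 0 of 5, and in 7 and 15 of 57, which is common for such genes (70.7% of those found in 3 to 10 positive cells and 48.1% of those found in 11 to 20). Dcx, a microtubule protein of young migrating neurons, was found in all 5 at 33.1 to 3613 CPM, and WT female cell 7 exceeded every positive cell (maximum 1962). Sox11, a factor of immature neurons, was at 1539 CPM in Mut female cell 18 and 884 in Mut female cell 2 and at 5.22 CPM in WT female cell 7, where the positive median was 427.

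Neuropeptides and other subtype genes were scattered. Npy, a neuropeptide of MGE interneurons, was at 1015 CPM in WT female cell 7, 23.2 in Mut female cell 18, 12.1 in WT male cell 12, 6.60 in Mut female cell 2 and 2.78 in Mut male cell 3; 51 of 57 positive cells held it, with a median of 360. Sst, the somatostatin gene, reached 12.1 CPM in WT male cell 12 and 0.428 to 5.15 elsewhere. Single cells held single subtype genes at high level: Reln, a secreted glycoprotein, was at 1088 CPM in Mut female cell 18, Nos1, neuronal nitric oxide synthase, at 196 in WT male cell 12, and Cort and Tac1, neuropeptide genes, at 85.6 and 188 in Mut female cell 2. Pvalb, which comes on later in development, was at 0.322 CPM or less in all 5.

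Genes used for interneurons of the caudal ganglionic eminence (CGE) were found in some of the 5. Prox1, a homeobox factor kept by CGE interneurons and by dentate granule cells, was at 114 CPM in Mut male cell 3 and 31.4 in Mut female cell 2 and in 5 of 57 positive cells. Cck, a peptide of CGE basket cells and also of pyramidal neurons, measured 1785 CPM in WT male cell 12 and 1694 in Mut male cell 3, both above the positive maximum of 1336, and 530 in WT female cell 7. Calb2 (calretinin) at 483 CPM and Npas1 at 262 were both in Mut female cell 2, and Calb2 was above its positive maximum of 226. WT male cell 12 held Cnr1, the cannabinoid receptor, at 437 CPM. Nr2f1, a nuclear receptor of CGE and also of other forebrain neurons, was found in 3 of 5, at 55.6 CPM in WT female cell 7, 32.1 in Mut female cell 2 and 24.3 in WT male cell 12, with a positive median of 14.5. Some CGE genes were at or near 0: Htr3a was at 0 CPM in all 5 cells, Vip at 0.535 or less, Nr2f2 at 1.61 or less and Adarb2 at 3.64 or less. Of the 8 CGE genes in the comparison 4 were more often found and 4 less often, none by 50 points.

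**Figure D3:**
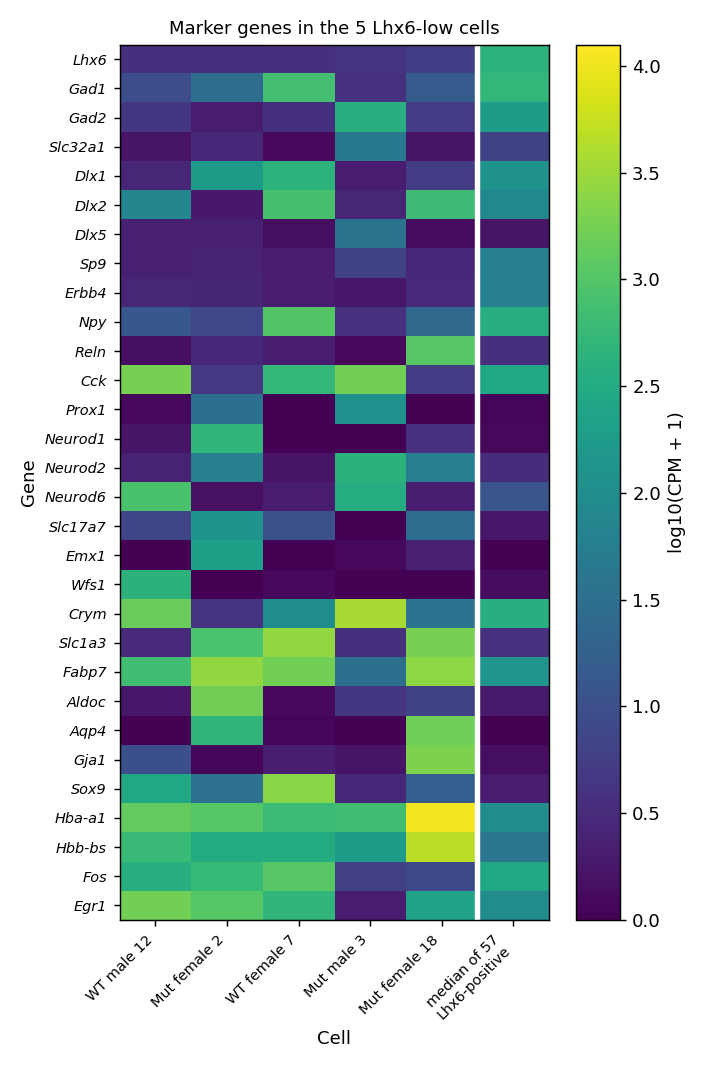
Level of selected marker genes as log10(CPM + 1), with 1 column per Lhx6-low cell and the median of the 57 Lhx6-positive cells at the right. Gad1 is high in WT female cell 7 alone, Gad2 in Mut male cell 3 alone, Aqp4 in the Mut female cells, and Hba-a1 and Hbb-bs are above the positive median in every cell.

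Pyramidal neuron genes were found in all 5 cells, each with its own set, and also in every positive cell. At least 1 of Neurod1, Neurod2 and Neurod6, basic helix-loop-helix factors of glutamatergic neurons, was found in 4 of 5 and in 37 of 57 positive cells. Neurod6 measured 833 CPM in WT male cell 12 and 349 in Mut male cell 3 and 0.550 to 1.24 in the others. Neurod2 was at 427 CPM in Mut male cell 3, above the positive maximum of 291, at 59.0 in Mut female cell 2 and at 55.7 in Mut female cell 18. Neurod1 was at 504 CPM in Mut female cell 2, above the positive maximum of 374, and at 2.90 or less elsewhere.

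Slc17a7, the vesicular glutamate transporter of cortical neurons, was found in Mut female cell 2 at 130 CPM and Mut female cell 18 at 27.4, and in 20 of 57 positive cells. Mut male cell 3, with Neurod2 and Neurod6, had it at 0 CPM, and so the defining pyramidal genes did not come as a block. Emx1, a dorsal telencephalic factor, was at 208 CPM in Mut female cell 2 (positive maximum 68.2). Fezf2, a factor of corticofugal neurons, was at 47.9 CPM in Mut male cell 3. Wfs1, a marker of CA1 pyramidal cells, was at 429 CPM in WT male cell 12. Crym, a thyroid hormone-binding protein of pyramidal cells, was at 3686 CPM in Mut male cell 3 and 1474 in WT male cell 12, with a positive median of 379. It was at 3.30 to 96.6 CPM in the others. Mpped1 was at 1272 CPM in Mut male cell 3 and at 7.08 to 59.8 in the others, below its positive median of 659. It was found in 54 of 57 positive cells, and Crym in 49.

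The 17 pyramidal genes summed to 5942 CPM in Mut male cell 3, 3088 in WT male cell 12, 982 in Mut female cell 2, 227 in WT female cell 7 and 169 in Mut female cell 18. The positive cells spanned 27.6 to 8113 CPM with a median of 1745, so the 5 cells lay on both sides of it and within the range. A decarboxylase together with a Neurod gene was found in 3 of 5 and in 37 of 57 cells, which is 60.0% and 64.9% of each set. Per cell, a median of 6 pyramidal genes was found in the Lhx6-low cells, 5 in the positive cells and 4 in the matched cells. Neurod6 and Neurod2 were each found in 6 of 21 matched cells and Neurod1 in 0. For Neurod6 the difference in share was -10.9 points against the 57 positive cells and 11.4 points against the matched cells. Mpped1 and Crym, each in 19 of 21 matched cells, remained less often found in the Lhx6-low cells. None of the 16 pyramidal genes in the comparison differed by 50 points, and 10 were more often found in the Lhx6-low cells against 6 less often. Over all genes 2817 were more often and 9258 less often found. That split depends on how rare the genes are, so it is no baseline for this list.

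Genes of astrocytes and radial glia stood highest in 3 cells. The 15 genes of that list summed to 8561 CPM in Mut female cell 18, 8103 in Mut female cell 2, 7479 in WT female cell 7, 2148 in WT male cell 12 and 50.1 in Mut male cell 3. The positive cells ran from 34.2 to 6916 CPM with a median of 453, so the first 3 lay above every positive cell, while Mut male cell 3 was among the lowest. Mut female cell 2 had 11 of the 15 genes found, Mut female cell 18 had 9, and the positive cells had 1 to 11 with a median of 4. In the comparison, 10 of 13 glial genes were more often found in the Lhx6-low cells and 3 less often, with 1 (Sox9) past 50 points and none found in 0 of 5. Over all 12207 genes, 0.0983% were more often found by that margin. The split into more and less often found depends on how rare the genes are, and was not tested.

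Sox9 (chromosome 11, 112782224 to 112787760, plus strand), a glial fate factor, measured 2360 CPM in WT female cell 7, 288 in WT male cell 12, 33.7 in Mut female cell 2, 15.7 in Mut female cell 18 and 2.002 in Mut male cell 3. The positive maximum was 190 CPM and 12 of 57 cells held it, or 2 of 21 matched ones. On the authors' TPM scale, with 7 cells below the Lhx6 limit, its difference in share shrank from 58.9 to 12.2 points. Fabp7, the brain lipid-binding protein of radial glia and astrocytes, was found in all 5 at 31.9 to 2762 CPM and in 40 of 57 positive cells with a median of 138.

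Slc1a3, the glial glutamate transporter GLAST, was at 2735 CPM in WT female cell 7 and 1788 in Mut female cell 18, both above the positive maximum of 1094. It was at 880 in Mut female cell 2 and at 2.17 and 2.54 in the male cells. Aqp4, the water channel of astrocyte endfeet, was at 1548 CPM in Mut female cell 18 and 487 in Mut female cell 2, at 0.134 or 0 in the others, and in 1 of 57 positive cells, at 110. Gfap was in the same Mut female cells at 365 and 50.8 CPM, and in 3 of 57 positive ones.

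Beyond these shared genes the glial sets differed. Gja1, the connexin of astrocytes, was at 1957 CPM in Mut female cell 18 only, with a positive maximum of 270. Aldoc, a glycolytic enzyme of astrocytes, at 1624 CPM and Vim, an intermediate filament of immature glia, at 1234 were in Mut female cell 2 only, each above its positive maximum. Aldh1l1, a folate enzyme of astrocytes, was at 395 CPM in WT female cell 7 only. Hes5 was at 0 CPM in all 5 and Nes at 0.322 or less, so these radial glia genes were not found. WT female cell 7 had Sox9, Slc1a3 and Fabp7 beside strong Gad1 and Npy, and its Aqp4 and Gfap were at 0.134 and 0.267 CPM.

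Haemoglobin RNA was found in all 5 cells. Hba-a1 measured 10782 CPM in Mut female cell 18, 1323 in WT male cell 12, 1037 in Mut female cell 2, 700 in Mut male cell 3 and 626 in WT female cell 7, against a positive median of 93.8 and maximum of 3552. Hbb-bs was at 4692 CPM in Mut female cell 18 and 168 to 604 in the others, with a positive median of 40.3. Hba-a2 ranged from 59.9 CPM in WT female cell 7, under the positive median of 150, to 11373 in Mut female cell 18. Hbb-bs, Hba-a1 and Hba-a2 were found together in 5 of 5 and in 32 of 57 cells (56.1%, exact 95% interval 42.4 to 69.3%). Near-identical copies such as Hba-a1 and Hba-a2 share reads, and the split between them is uncertain. Red blood cell genes summed to 26898 CPM in Mut female cell 18, the highest of the 62 cells, and to 1022 to 3316 in the other 4. Those 4 lay above the positive median of 304 and the matched median of 507. They were within the positive range of 2.75 to 13445. A relation of these levels to Lhx6, and their part in the other differences, was not tested.

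**Figure D4:**
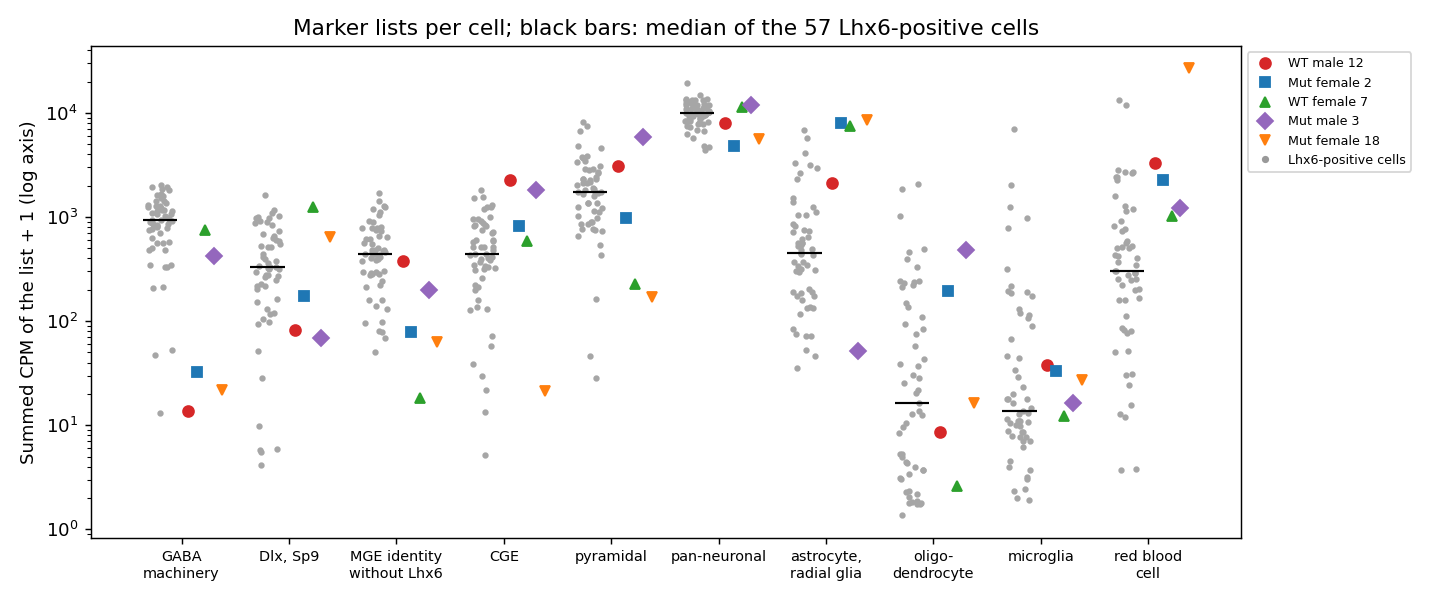
Summed CPM + 1 (log axis) of 10 marker lists in each cell, with the Lhx6-low cells coloured, the Lhx6-positive cells grey and the median of the latter as a black bar. GABA genes are below the bar in every coloured cell, glial genes exceed all grey cells in 3 coloured ones, and pyramidal genes spread on both sides of the bar.

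Markers of other lineages were mostly low. Microglial genes summed to 11.3 to 37.2 CPM, against 0.922 to 7011 in the positive cells, and 7 of the 10 in the comparison were found in 0 of 5, a share like the 70.7% of all genes found in 3 to 10 positive cells. Tmem119 was at 0 CPM in all 5, Cx3cr1 at 5.94 or less and P2ry12 at 1.52 or less. Other members of the list were found: C1qc, Csf1r and Trem2 in 1 Lhx6-low cell each. WT male cell 12 had 2 microglial genes found and Mut female cell 2 had 1. In the oligodendrocyte list Mbp, a myelin protein, was at 407 CPM in Mut male cell 3 and Olig1, a lineage factor, at 193 in Mut female cell 2, while Olig2 and Sox10 lay at 0.856 CPM or less and Mog was at 0 in all. Endothelial and pericyte genes summed to 64.1 to 220 CPM, all above the positive median of 61.1 and within the range. Pecam1, an endothelial adhesion molecule, was found in 5 of 5 and 48 of 57 cells, and Pdgfrb, a pericyte receptor, was at 145 CPM in Mut male cell 3 against a positive maximum of 42.4. Cldn5, an endothelial junction protein, stayed at 1.61 CPM or less.

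Cholinergic markers did not mark the 5: Slc18a3 and Gbx2 were at 0 CPM in each, Chat at 0 in 4 cells and at 5.15 CPM in Mut female cell 18, and Ache was at 98.0 CPM in WT male cell 12. For Cajal-Retzius cells, Trp73 and Lhx1 were at 0 in all, and Nhlh2 was at 236 CPM in Mut female cell 2 against a positive maximum of 41.3. Cell cycle genes were found only here and there, with Cdk1, a mitotic kinase, at 161 CPM in Mut female cell 2 and Mki67 at 0.644 or less in all.

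The cells read as neurons by general markers. Of 15 pan-neuronal genes, 14 were found in WT male cell 12, 13 in Mut female cell 2, 12 in Mut male cell 3, 10 in Mut female cell 18 and 9 in WT female cell 7, and the positive cells had 9 to 15 with a median of 13. Tubb3, neuronal beta-tubulin, was at 862 to 4050 CPM and Gap43, a growth cone protein, at 79.9 to 3181. Stmn2, a tubulin-binding protein of growing neurites, was lower than every positive cell in Mut female cell 2 (334 CPM) and WT female cell 7 (31.7), where the positive minimum was 364. Map2 was at 2.67 CPM in WT female cell 7 and 6.12 in Mut female cell 18, with a positive median of 285. Rbfox3 was at 1.07 and 0.966 CPM in these cells and above its positive median of 82.3 in the others. The list summed to 4789 CPM in Mut female cell 2 and 5611 in Mut female cell 18, with a positive median of 10045.5. The median over all 15 genes of the difference in share was 0 points.

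Immediate early and stress genes were high in 4 of the 5 cells. The list summed to 3825 CPM in WT female cell 7, 2873 in WT male cell 12, 2810 in Mut female cell 18 and 2620 in Mut female cell 2, and to 235 in Mut male cell 3, against 13.4 to 4748 (median 784) in the positive cells. Egr1, an activity-induced zinc-finger factor, was at 1662 CPM in WT male cell 12, above the positive maximum of 1163, at 1059 in Mut female cell 2, 500 in WT female cell 7, 228 in Mut female cell 18 and 1.07 in Mut male cell 3. Fos was at 391, 554 and 1085 CPM in the first 3 of these and at 7.09 and 4.92 in the last 2. Junb was at 2551 CPM in Mut female cell 18, above the positive maximum of 696, and Atf3, a stress factor, was at 1120 in WT female cell 7, above 910. Of the 13 genes of this list in the comparison 6 were more often found, 1 of them (Nr4a1) by 50 points, and 7 less often. Over all 12207 genes, 0.0983% were more often found by that margin. The genes behind the sums differed between the cells.

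Across all genes, shares in the 5 Lhx6-low cells were compared with those in the 57 positive cells. Of 12207 genes, 478 were found less often by 50 points or more and 12 more often. The shares were lower for 9258 and higher for 2817, but the set sizes push this split to the lower side. With 5 cells, a gene rare in the positive cells is mostly found in none and counts as lower. This held for 70.7% of genes found in 3 to 10 positive cells. No gene was below or above all 57 positive cells in all 5 Lhx6-low cells (0% each way). Against the 21 matched cells, and over 8024 genes, 96 were found less often (1.2%) and 69 more often (0.86%), and 91 of the 96 were also among the 478. Leaving out WT female cell 7 raised the count of genes found more often from 12 to 63.

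**Figure D5:**
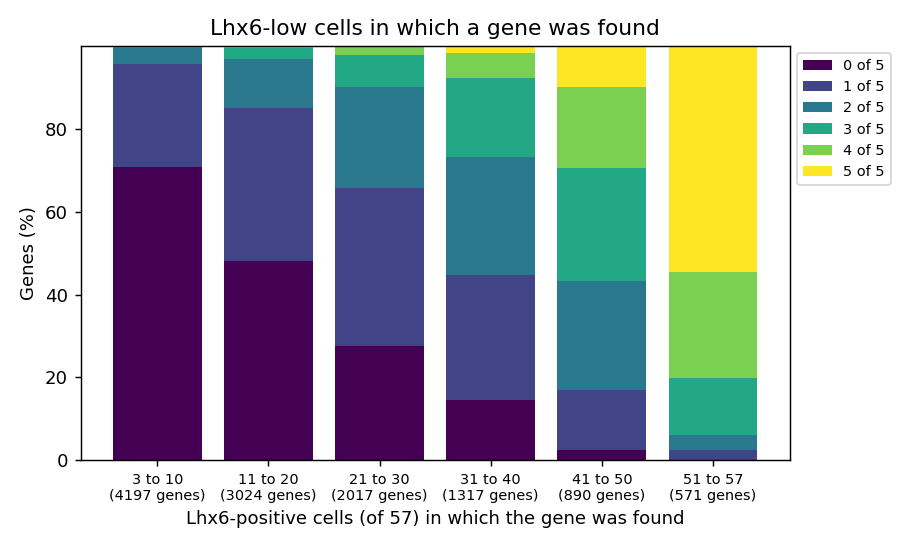
Genes grouped by the number of Lhx6-positive cells in which they were found (number of genes under each bar), split by the number of Lhx6-low cells (0 to 5) in which they were found, in percent of genes. Genes found in no Lhx6-low cell make up 70.7% of the rarest class, 2.58% of those found in 41 to 50 positive cells and 0.175% of those found in 51 to 57.

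Dner, a Notch-like receptor of neurons (chromosome 1, 84369839 to 84696221, minus strand), stood farthest apart among the genes not used by the rule. It measured 7.81 CPM in WT male cell 12, 7.33 in Mut female cell 2, 4.01 in WT female cell 7, 6.85 in Mut male cell 3 and 9.02 in Mut female cell 18, and 52 of 57 positive cells held it, with a median of 571 and a range of 3.13 to 1758 CPM. It was the 1 gene of 571 found in 51 to 57 positive cells that no Lhx6-low cell held at 10 CPM or more. Of the matched cells, 16 of 21 held it. The difference in share for Dner was -91.2 points, but 0 points when a gene counted as found at 1 CPM. With TPM it was -58.7 points, and at an Lhx6 limit of 20 CPM it was -62.3 points.

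Next came Fam171b and Dync1li1, a light intermediate chain of cytoplasmic dynein, in 0 of 5 and 50 of 57 cells. Wdr1, an actin-disassembly factor, and Ncs1, a neuronal calcium sensor, were found in 0 of 5 and 49 of 57, and in 17 and 14 of 21 matched cells. Tomm70a, a mitochondrial import receptor, was found in 47 of 57, and Gria4, an AMPA receptor subunit of interneurons, in 46 of 57 with a median of 138 CPM. In the 5 cells Gria4 lay between 0.867 and 4.83 CPM. It was found in 10 of 21 matched cells, so its difference narrowed from -80.7 to -47.6 points, and with TPM it was -44.2 points. Ndel1, a dynein regulator of neuronal migration, and Soga3 were found in 45 of 57, and Ubash3b and Zranb2 in 44. Alcam, a cell adhesion molecule, Gpsm1, a G-protein modulator, Cetn3, a centrin, and Scamp5, a vesicle protein, were found in 43 of 57 and in 10 to 13 of the matched cells.

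Among the 12 genes found more often were some that were high in several of the 5 and some that lay close to the limit throughout. Prdm16, a factor of radial glia, was at 149 CPM in Mut male cell 3, 25.7 in Mut female cell 2 and 12.9 in Mut female cell 18, and was found in 2 of 57 positive cells. Zbtb17, a zinc-finger factor, was at 1038 CPM in WT female cell 7, 353 in WT male cell 12, 179 in Mut female cell 18 and 10.5 in Mut male cell 3, with 15 of 57 positive cells. Cdkn2aipnl was found in all 5 cells at 24.6 to 1184 CPM and in 28 of 57, or 5 of 21 matched ones. Rgs20, a regulator of G-protein signalling, was at 171 CPM in WT male cell 12 and 19.4 to 35.7 in 3 others. By contrast Acnat1 lay at 11.9 to 12.9 CPM in 4 cells and Tnfrsf26 at 11.7 to 21.8 in 4, just above the limit, with positive medians of 3.46 and 6.46 CPM. Trpv2, an ion channel, was found in 5 of 5 and 27 of 57, and Hbb-bt, a beta-globin gene, in 4 of 5 and 17 of 57.

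Each of the 5 cells also held genes that no other cell did. Genes at 100 CPM or more in 1 cell and under 10 CPM in all the other 61 numbered 15 in WT male cell 12, 12 in Mut female cell 18, 10 in Mut female cell 2, 9 in Mut male cell 3 and 2 in WT female cell 7, and 0 to 16 (median 5) in the positive cells. They included Ocln, a tight-junction protein, at 610 CPM in WT male cell 12, the cell division genes Kif4 at 278 and Cdca5 at 210 in Mut female cell 2, the potassium channel subunit Kcne4 at 368 in Mut male cell 3, and the ectonucleotidase Entpd1 at 1450 in Mut female cell 18. The median Spearman correlation of a cell's CPM values with those of the positive cells, across genes, was 0.454, 0.488, 0.539, 0.471 and 0.525 in the order given for Lhx6. The positive cells had 0.440 to 0.551 among themselves, so none of the 5 lay outside.

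Set side by side, the cells differed as follows. WT male cell 12 had the lowest GABA sum of the 5 and held Neurod6, Wfs1, Crym, Cck and Cnr1, together with Dlx2, Zeb2, Nos1 and Sox9. Its Neurod1, Neurod2 and Emx1 were at 1.52 CPM or less, and its glial genes summed to 2148 CPM. Mut male cell 3 held Gad2, Slc32a1 and Dlx5 together with Neurod2, Neurod6 and Fezf2, with Fabp7 as its 1 gene of the astrocyte and radial glia list and with Mbp and Cspg4 of the oligodendrocyte list. Mut female cell 2 held low Gad1 with Dlx1, together with Neurod1, Emx1 and Slc17a7 and 11 glial genes. Mut female cell 18 held low Gad1 with Dlx2 and Reln, together with Aqp4, Gja1, Gfap and the most haemoglobin RNA. WT female cell 7 held Gad1, Npy, Dlx1 and Dlx2 at or above the positive medians, together with Sox9 and Slc1a3, and had the fewest genes at 10 CPM or more. Checked against the labelled cell type, Gad1 or Gad2 reached 100 CPM in 2 of the 5 cells and in 52 of 57 positive cells.

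Within the 57 Lhx6-positive cells, the Lhx6 level was only weakly related to these features. Across cells Spearman's rho of Lhx6 CPM was 0.164 with the number of GABA genes found, 0.0412 with that of MGE genes, -0.175 with that of pyramidal genes, -0.0884 with that of glial genes and -0.167 with genes found. These are descriptions over 57 cells that share animals in an unknown way. WT male cell 9, which lay just above the limit at 16.1 CPM, had Gad1 at 42.5 and Gad2 at 2.41 CPM. Mut male cell 12, at 12.4 CPM and closest to the limit, had Gad1 at 741 and Gad2 at 913 CPM. The levels of these 2 neighbours of the limit were thus far apart.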

How the data were processed

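Single-cell Patch-seq libraries of 76 mouse CA1 cells were analysed. The deposited count tables hold estimated counts per gene symbol, made by the authors with kallisto on GRCm38 per the submitters' processing notes; the version is not given in the sources used here. The deposited normalized table holds TPM, whose columns sum to 1000000. In the tables, 44 columns after and 52 before the authors' quality filter belong to no sample described here and were not used. The authors kept 67 cells, of which 5 are marked contaminated in the labels; the basis of the mark and of the filter is not given in the sources used here. Of 35825 symbols, 35408 are in GENCODE M21 (GRCm38), from which coordinates come. Cell numbers follow the order of the labels in each group and only name the cells.

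CPM was computed from the counts. Genes found (10 CPM or more) in at least 3 of 62 cells were compared by the share of cells holding them, and a difference of 50 percentage points or more was called. The text names up to 15 genes per direction by difference in share and the members of 18 marker lists (175 genes, 1 without a row); a few further list members are not reported here and enter no list count or sum. The members, lists and limits were chosen with earlier results of these data known. Exact binomial intervals are at 95%. No p-value was computed, since each set is 1 sample and was split by a measured value. The calling of genes was checked on simulated data with large planted changes, drawn independently for each gene and cell. Those data held no difference in library richness between cells, so the check does not cover it. Alternatives were other Lhx6 and found limits, TPM, TMM scaling (edgeR 4.0.16), other cell filters, medians of log2(CPM + 1), leaving out each Lhx6-low cell, and the matched cells. The highest correlation of log2 CPM between any pair of cells was 0.841, so no library was taken as deposited more than once. Python 3.11.15, pandas 2.3.3 and scipy 1.17.1 were used.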

Additional observations from a re-analysis of the deposited data

Results flagged for a closer look

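Of 45 measures compared among the 5 Lhx6-low cells, 8 had 1 cell whose gap to its nearest neighbour was large for the range of the 5. The rule marks about 1 in 20 cases only where values follow a normal distribution. Sums of CPM and small counts of genes need not do so, and measures of the same list are related. No chance rate is therefore given for the 8. WT female cell 7 stood apart with 73.7% of common genes found and with 5462 CPM over the migration and maturation list. Mut female cell 18 stood apart with 26898 CPM of red blood cell genes. Its Lhx6 at 4.74 CPM is also among the 8, but Lhx6 is the value that chose the 5 cells, so that case is no finding. Mut female cell 2 had 6.01% of its counts in ribosomal protein genes, 2 parvalbumin-lineage genes found (1 in each of the others) and 236 CPM over the Cajal-Retzius list, nearly all from Nhlh2. WT male cell 12 had 98.2 CPM over the cholinergic list, nearly all from Ache. These 4 cells account for all 8 cases, and Mut male cell 3 for 0.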

How the results depend on the processing

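No paired analysis was possible because the cell numbers were given in label order and pair no cells across groups, and no result comes from a test. Counts of genes found more and less often by 50 points were 12 and 478. At an Lhx6 limit of 20 CPM (7 cells below) they were 3 and 131. With TPM (7 cells) the second count was 132, and with TMM scaling, under which WT female cell 7 (factor 0.257) left the set, the first was 88. With unmarked cells from before the quality filter (7 cells) they were 1 and 273. With cells marked as contaminated added, 8 cells were below the limit and 25 genes were less often found. Counting a gene as found at 1 CPM gave 39 and 208, a difference in the median number of genes found per cell of -1 for the GABA list (-2 at 10 CPM), and differences in share of 1.75 points for Gad2 and 14.04 points for Sp9, now higher in the Lhx6-low cells; at 50 CPM the second count was 310. Medians of log2(CPM + 1) past 2 gave 269 and 1997, and of log2(CPM + 10) 139 and 1182. The matched cells gave 69 and 96 and turned the median recovery of common genes to 0.591 points higher in the Lhx6-low cells. Without the 2 poorest cells (WT female cell 7 and Mut female cell 18) the first count was 200. Leaving out each cell in turn gave 15 to 63 and 463 to 667; the count of genes found more often was 63 without WT female cell 7. A filter on low values against none gave the same counts by construction. With 5 cells, the share of cells moves in steps of 20 points, which limits every difference.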

Other observations

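Low Lhx6 was also seen outside the kept and unmarked cells. Of the 5 cells marked contaminated, 3 were below 10 CPM: WT male contaminated cell 1 at 3.58, WT male contaminated cell 3 at 7.13 and WT female contaminated cell 1 at 2.92. In these 3 the microglial gene C1qb was at 2481, 2125 and 708 CPM, whereas the 5 Lhx6-low cells held 1.10 to 6.12 CPM. Of the 9 unmarked cells that the authors did not keep, 2 were below the limit, Mut female cell 9 at 6.53 and Mut female cell 12 at 5.92 CPM. Mut female cell 9 held Gad2 at 242 CPM and Npy at 2340. Mut female cell 12 held Neurod6 at 1257 CPM with Gad1 at 7.84 and Gad2 at 2.24, levels of the same order as in WT male cell 12. Another unkept cell, Mut female cell 7, was just above the limit at 10.4 CPM and held Hbb-bs at 4392 CPM, next to 4692 in Mut female cell 18.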
